A study of Mus musculus with 12 samples.

Results

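The genes described here are the collagens and laminins, the structural proteins of the extracellular matrix. They were chosen by symbol alone, as every gene of the authors' filtered expression table whose name is that of a collagen chain (Col, number, a, number) or of a laminin chain (Lama, Lamb or Lamc with a number). This gave 51 of 17311 genes, of which 40 were collagens and 11 laminins. By type of assembly, 11 were fibrillar collagens, 6 were the type IV collagens of basement membranes and 23 were minor collagens, meaning all other types. The laminins comprised 5 α, 3 β and 3 γ chains. A further 4 collagen genes (Col6a4, Col10a1, Col19a1 and Col25a1) had no more than 12 counts over all libraries in the full count table and were not in the filtered one.

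Polyadenylated RNA of 12 mouse libraries was compared. Peritumoral hepatocytes (3 libraries) were taken from mice that had carried liver tumours for 8 weeks after a hydrodynamic injection at 8 weeks of age. The injected plasmids were SB11, a transposase (1 µg), myc-NICD, the active intracellular part of Notch (20 µg), and myr-ha-Akt, a membrane-bound form of the kinase Akt (4 µg). Untreated hepatocytes (3 libraries) were untreated, per their titles. Both hepatocyte groups were titled wild type and came from the line Lats1tm1.1Jfm/RjoJ; Lats2tm1.1Jfm/RjoJ, which carries floxed alleles of the Hippo pathway kinases Lats1 and Lats2, and the sources used here do not say whether Cre was present. Livers of CD-1 IGS mice were taken 24 h (2 libraries) or 48 h (2 libraries) after 1 intraperitoneal injection of thioacetamide (TAA), a hepatotoxin, at an unstated dose, and compared with control livers (2 libraries) of the same stock. All sample labels name hepatocytes purified on a Percoll gradient, at an age of 8 weeks. The series' design text instead speaks of livers for the TAA treatment, and the titles of those and of the control samples share a prefix, so they are called livers here. An injection at 8 weeks and 8 weeks of tumour growth would make peritumoral mice older at harvest than the age label. If untreated mice were taken at 8 weeks, age and tumour burden cannot be told apart. Where mice were pooled or which replicates are separate animals is not stated, so p-values measure the spread between these samples.

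Collagens are built from 3 α chains wound into a triple helix. Fibrillar types such as I, III and V form the tensile fibres of connective tissue and scar, type IV forms the sheet-like network of basement membranes, and minor types sit on fibril surfaces, form beaded filaments, span membranes or, like type XVIII, lie in the basement membrane zone. Laminins are cross-shaped trimers of an α, a β and a γ chain that start basement membrane assembly. In liver, hepatic stellate cells and portal fibroblasts are the known makers of fibrillar collagen after injury, while the space next to hepatocytes holds little dense basement membrane and hepatocytes themselves are a known source of type XVIII.

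Hepatocyte libraries held 16228747 to 18522324 counts and liver libraries 9640845 to 13692235. Peritumoral replicate 2 stood apart from the other hepatocyte libraries. It held Xist, which is made from the silenced X of female cells, at 527 RPM (counts scaled to the library total), against at most 0.183 RPM in the other 5, and it had no read of the Y-linked gene Ddx3y, which stood at 59.6 to 75.5 RPM in those 5. Notch1 stood at 462 RPM in peritumoral replicate 2, at 77.9 and 77.05 RPM in the other peritumoral libraries and at 19.05 to 20.3 RPM in untreated ones. Whether plasmid or tumour reads are among these was not tested. All 6 livers held Xist and no Ddx3y read. Fold changes of members and mean levels per kilobase in the peritumoral group are therefore also given without this library where that moves them by over 1.5 times. Hepatocyte genes were abundant in every library: the 7 listed summed to 74812 to 137380 RPM in peritumoral hepatocytes, 86985 to 88795 RPM in untreated hepatocytes, 119500 to 135000 RPM at 24 h, 119150 to 120680 RPM at 48 h and 175300 to 176860 RPM in control livers. Most of each sum was Alb (62340 to 122700 RPM in peritumoral and 65750 to 69760 RPM in untreated hepatocytes), so the sums do not measure hepatocyte content. Levels below are CPM, counts scaled to a common library size by edgeR's TMM factors within the 6 hepatocyte or the 6 liver libraries, and fold changes are on the log2 scale with their standard error (SE).

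Before any injury a single gene supplied most collagen transcript. Per kilobase of exon, Col18a1, whose product is type XVIII collagen and the source of endostatin, averaged 167.9 ± 57.1 CPM per kb in untreated hepatocytes (SD, n = 3) and 307.1 ± 12.6 CPM per kb in control livers (SD, n = 2). The next highest members on that scale were Col4a2 at 10.1 ± 1.10 and Col4a1 at 9.64 ± 1.49 CPM per kb in untreated hepatocytes, and Col14a1 at 3.93 ± 1.29 CPM per kb in control livers. Col4a2 and Col4a1 in untreated hepatocytes lay within each other's spread. In peritumoral hepatocytes the order was Col18a1 at 151 ± 21.7, Col4a1 at 46.6 ± 28.7, Col3a1 at 37.6 ± 20.3 and Col1a1 at 37.2 ± 34.2 CPM per kb, and of these the last 3 overlapped in their spread. Without peritumoral replicate 2 the means of Col4a1 and Col1a1 were 30.1 ± 2.15 and 18.15 ± 12.5 CPM per kb (SD, n = 2). At 48 h after TAA, Col18a1 stood at 94.4 ± 1.45, Col3a1 at 58.95 ± 20.1 and Col1a1 at 44.9 ± 15.8 CPM per kb.

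In peritumoral hepatocytes 29 of the 42 members that passed the low-count filter rose, 13 did not pass the test and 0 fell. Over all 13442 genes tested, 18.7% rose and 9.85% fell (edgeR quasi-likelihood test, Benjamini-Hochberg adjusted p under 0.05). The median log2 change was 3.34 over the 42 members and -0.02 over all genes, but a gene near absent in untreated hepatocytes passes the filter only through its peritumoral level, so neither count nor median stands for all 51. Among tested members, 6 of 9 fibrillar, 5 of 5 type IV and 11 of 17 minor collagens and 7 of 11 laminins rose. At an unadjusted p under 0.05, 0 members fell by edgeR as fitted here and 1 fell by DESeq2, by limma and in edgeR fits without scaling factors, without a count filter, with the replicate block, over all 12 libraries or without peritumoral replicate 2, and 0 fell after adjustment in each of these. Without peritumoral replicate 2 the same 29 genes rose, with lower fold changes for most. Leaving out an untreated library cost more calls: 16 members rose without replicate 1, 17 without replicate 2 and 23 without replicate 3. Untreated replicate 3 differed from replicates 1 and 2 by a chi-square per degree of freedom of 137 and 133 (genes with at least 20 counts in the pair). Untreated replicates 1 and 2 stood at 16.9 from each other, and peritumoral pairs at 94.2 to 232. The bearing of these values on the lost calls was not tested.

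**Figure D1:**
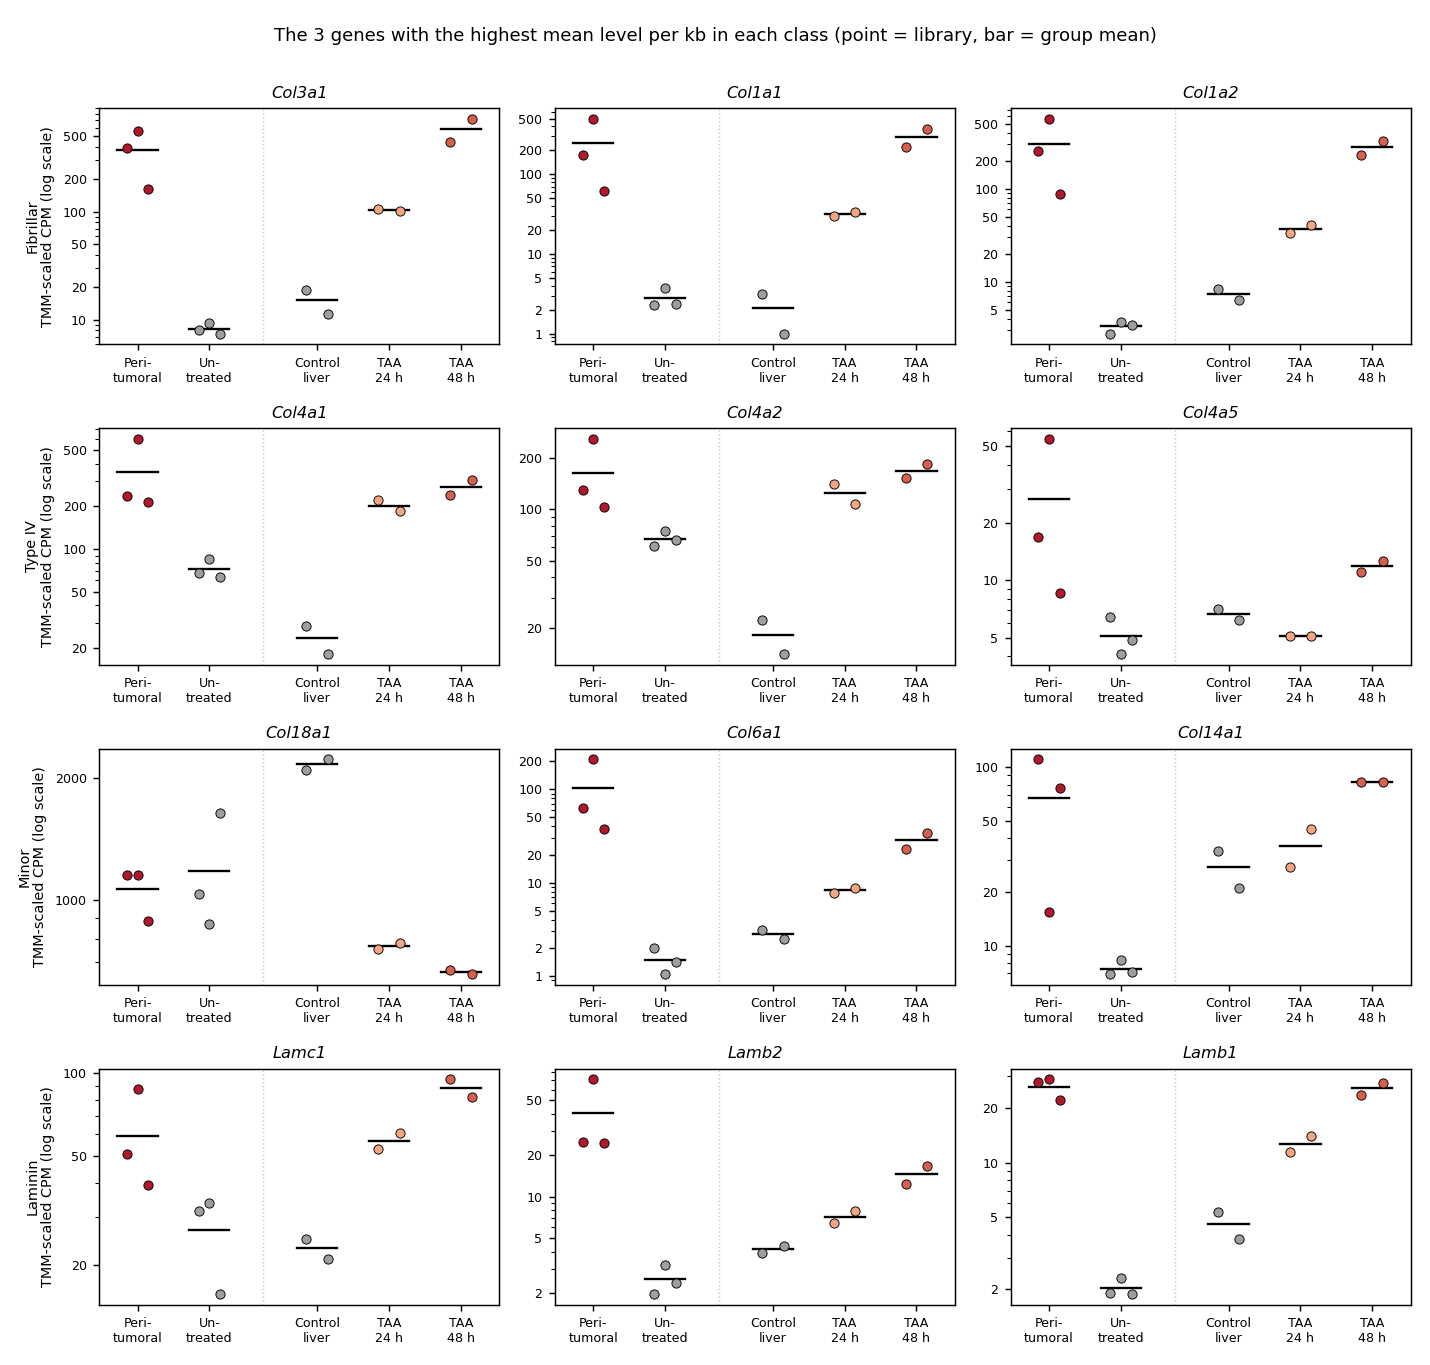
Level of the 3 highest genes of each class (rows from top: fibrillar, type IV, minor, laminin) as TMM-scaled CPM on a log axis, with points for libraries and bars for group means. The 3 peritumoral libraries lie above the 3 untreated ones for Col3a1, Col1a1, Col1a2, Col4a1, Col4a2, Col4a5, Col6a1, Col14a1, Lamc1, Lamb2 and Lamb1, and overlap them for Col18a1, which stands at 656 to 782 CPM after TAA, below 2093 and 2218 CPM in control livers.

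Among fibrillar collagens Col3a1, Col1a1, Col1a2, Col5a1 and Col5a2, chains of types I, III and V, rose. Col3a1 (type III, the reticular fibre collagen) stood at 384, 561 and 162 CPM in the peritumoral libraries, against 8.09, 9.36 and 7.47 CPM in the untreated ones, a rise of 5.47 ± 0.51 (adjusted p = 0.0033). Col1a1, the α1 chain of type I, stood at 177, 495 and 61.2 CPM in peritumoral and at 2.31, 3.72 and 2.36 CPM in untreated hepatocytes. It rose by 6.44 ± 0.87 (5.44 without peritumoral replicate 2, adjusted p = 0.00564 with it). The groups did not overlap for either gene, and replicate 2 was the highest and replicate 3 the lowest peritumoral library.

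Col1a2, the α2 chain of type I, stood at 253, 562 and 87.7 CPM in peritumoral hepatocytes against 2.77, 3.72 and 3.46 CPM in untreated ones. It rose by 6.50 ± 0.76, or 5.72 without peritumoral replicate 2. The type V chains Col5a2 and Col5a1, which help to start type I fibrils, rose by 4.84 ± 0.77 (3.88 without that library) and 4.00 ± 0.57. These 5 genes kept their call with any 1 library left out. Col24a1, a low-level fibrillar collagen, rose by 4.84 ± 0.84 with 1.68 to 4.36 CPM in peritumoral and at most 0.157 CPM in untreated libraries, and lost its call without untreated replicate 1 (adjusted p = 0.0510). Its rise was 4.22 without untreated replicate 2.

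The other fibrillar members did not follow. Col27a1, best known from cartilage, stood at 37.5, 6.39 and 33.2 CPM in peritumoral and 42.5, 69.8 and 92.6 CPM in untreated hepatocytes, a change of -1.41 ± 0.63 that did not pass (adjusted p = 0.138). The groups did not overlap, and peritumoral replicate 2 was far below the other peritumoral libraries. Col5a3 at 0.04 ± 0.66 and Col11a2 at 0.72 ± 0.52 did not pass either. Col2a1 and Col11a1, the main fibrillar collagens of cartilage, were not tested: they held 65 and 143 counts over the peritumoral libraries and none over the untreated ones, at least 20.9-fold and 45.9-fold higher against a floor of 3 counts over the untreated group. Most of those counts came from peritumoral replicate 2, at 2.57 CPM of Col2a1 and 5.77 CPM of Col11a1, against at most 0.121 and 0.231 CPM in the other 2 peritumoral libraries.

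The sequence in front of 4 collagen genes is shown because they cover both directions: Col3a1, Col5a1 and Col6a3 (a type VI chain) are among the genes that rose in peritumoral hepatocytes and at both TAA times, and Col27a1 is the fibrillar member that fell at 48 h after TAA. Each line holds the 250 bases before the RefSeq start (GRCm38.p6), 5′ to 3′ on the gene's strand. Col3a1 lies at chr1:45311288-45311537 (+), Col5a1 at chr2:27886175-27886424 (+), Col6a3 at chr1:90843972-90844221 (-) and Col27a1 at chr4:63215162-63215411 (+). Capitals mark 4 motifs on either strand: the TATA box letters TATAAA, the CCAAT box, the GC box letters GGGCGG, and, as the core letters bound by TEAD factors (the DNA-binding partners of YAP and TAZ), the run GGAATG. No motif contains another, and none of these 4 windows overlaps an exon of the annotation used.
Col3a1: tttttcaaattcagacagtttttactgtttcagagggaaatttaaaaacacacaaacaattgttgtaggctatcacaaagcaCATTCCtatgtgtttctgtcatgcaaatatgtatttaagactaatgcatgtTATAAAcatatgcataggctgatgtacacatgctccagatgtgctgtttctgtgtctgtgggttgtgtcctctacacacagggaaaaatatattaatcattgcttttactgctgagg
Col5a1: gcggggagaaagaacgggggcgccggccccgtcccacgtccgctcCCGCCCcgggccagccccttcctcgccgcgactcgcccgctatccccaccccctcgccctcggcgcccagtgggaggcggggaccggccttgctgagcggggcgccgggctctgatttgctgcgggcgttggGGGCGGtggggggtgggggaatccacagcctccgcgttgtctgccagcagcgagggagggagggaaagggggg
Col6a3: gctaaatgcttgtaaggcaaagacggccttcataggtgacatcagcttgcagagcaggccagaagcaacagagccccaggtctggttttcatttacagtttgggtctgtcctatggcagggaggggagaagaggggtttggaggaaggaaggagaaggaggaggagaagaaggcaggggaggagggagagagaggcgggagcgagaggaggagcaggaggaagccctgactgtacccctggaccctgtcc
Col27a1: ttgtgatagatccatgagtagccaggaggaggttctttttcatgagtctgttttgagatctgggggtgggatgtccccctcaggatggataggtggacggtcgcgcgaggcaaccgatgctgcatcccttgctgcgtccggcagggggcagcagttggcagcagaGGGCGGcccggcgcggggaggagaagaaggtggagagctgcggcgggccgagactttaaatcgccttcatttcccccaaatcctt

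The 3 windows of members that rose held different motifs. The Col3a1 window held TATAAA, starting 117 bases before the start, and GGAATG, starting 168 bases before it on the reverse strand, and it held 0 CG dinucleotides. The Col5a1 window held GGGCGG in both orientations, neither of the other motifs and 28 CG dinucleotides, and the Col6a3 window held none of the 4 motifs. The table covered 34 of the 51 genes, with 38 starts. Within 250 bases before the start, TATAAA was present for 4 of the 34 genes (12.37% of all 32851 starts), GGAATG for 5 (12.64%), CCAAT for 12 (33.85%) and GGGCGG for 20 (32.74%). A match is a description of these letters and not a binding site.

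All 5 tested type IV genes rose in peritumoral hepatocytes, against 18.7% of all genes tested, with modest folds for the 2 abundant chains. Col4a4 and Col4a6, near absent in untreated hepatocytes, passed the count filter only through their peritumoral level, so the count does not stand for the whole class. Col4a1 and Col4a2 form the common α1α1α2 network, and the genes lie head to head on chromosome 8, with first exons that overlap by 22 bases (chr8:11312805-11312826). Col4a1 stood at 236, 595 and 213 CPM in peritumoral and 67.8, 84.6 and 63.6 CPM in untreated hepatocytes, a rise of 2.27 ± 0.44 (1.68 without peritumoral replicate 2). Col4a2 stood at 129, 258 and 103 CPM in peritumoral and 60.5, 74.9 and 65.9 CPM in untreated hepatocytes, a rise of 1.29 ± 0.35. Neither gene's groups overlapped, and peritumoral replicate 2 was the highest for both.

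Col4a5, the X-linked chain of the kidney-type network, stood at 16.7, 54.5 and 8.61 CPM in peritumoral and 6.41, 4.13 and 4.88 CPM in untreated hepatocytes, a rise of 2.37 ± 0.67 (1.34 without peritumoral replicate 2). Col4a6, its neighbour on the X chromosome, had 72, 389 and 27 counts in the peritumoral libraries and 1 count over the untreated ones, a ratio of 470 (95% counting interval 84.01 to 1.861e+04). Its fitted rise was 8.04 ± 1.37, or 6.72 without peritumoral replicate 2 and 10.01 without untreated replicate 2. Col4a4 rose by 3.31 ± 0.53, with 0.867 to 1.39 CPM in peritumoral and at most 0.157 CPM in untreated libraries. These calls were less firm than those on types I and III. The call on Col4a1 was lost when untreated replicate 1 or 2 was dropped (adjusted p = 0.0551 to 0.0619), and with any single untreated library dropped so were those on Col4a2 (0.0897 to 0.127) and Col4a5 (0.101 to 0.131). The call on Col4a4 was lost without untreated replicate 1 (0.0510) and that on Col4a6 without untreated replicate 2 (0.0574).

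Among minor collagens, 4 of the 5 genes of type VI, which forms beaded filaments around cells, rose, against 18.7% of all genes tested. Col6a1 stood at 63.8, 210 and 37.9 CPM in peritumoral and 1.96, 1.05 and 1.42 CPM in untreated hepatocytes, a rise of 6.13 ± 0.78 (5.13 without peritumoral replicate 2). Col6a2 rose by 6.38 ± 0.72 (5.64 without it), Col6a3 by 4.00 ± 0.36 and Col6a5 by 7.11 ± 0.62. Col6a5 had 373, 265 and 546 counts in the peritumoral libraries and only 3, 1 and 3 in the untreated ones. It passed the filter only through its peritumoral level, and its fold rests on few untreated counts. Col6a6 stood at 5.15, 7.38 and 5.49 CPM against 3.12, 2.79 and 0.787 CPM and did not pass (1.42 ± 0.51, adjusted p = 0.0789). All 5 summed to 27.1, 69.7 and 18.5 CPM per kb in peritumoral libraries, against 0.942, 0.831 and 0.772 CPM per kb in untreated ones.

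Among collagens that sit on fibril surfaces, Col16a1 rose by 6.15 ± 0.78 (5.28 without peritumoral replicate 2). Col14a1 stood at 111, 15.5 and 76.4 CPM in peritumoral and 6.93, 8.26 and 7.08 CPM in untreated hepatocytes, a rise of 3.18 ± 0.67. Here peritumoral replicate 2 was the lowest library, the reverse of most members. Col8a1, a short-chain collagen of vessel walls, rose by 3.48 ± 0.56, and the membrane-spanning collagens Col13a1, Col17a1 and Col23a1 by 2.39 ± 0.50, 1.83 ± 0.51 and 4.59 ± 1.09. Col9a3, a cartilage collagen chain, rose by 6.57 ± 1.23 (4.76 without peritumoral replicate 2), and Col23a1 by 3.29 without that library and 5.20 without untreated replicate 2.

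Of these, Col9a3 and Col13a1 lost their calls without untreated replicate 1 or 2 (adjusted p = 0.0516 to 0.0648), Col14a1 and Col23a1 without any 1 untreated library (0.0554 to 0.0943), and Col17a1 when replicate 1 or 2 of the untreated, or 1 or 3 of the peritumoral group, was dropped (0.0714 to 0.153). Col18a1 stood at 1148, 1150 and 885 CPM in peritumoral and 1031, 873 and 1632 CPM in untreated hepatocytes. Its groups overlapped, and the change of -0.15 ± 0.34 did not pass. Its relative in the multiplexin family, Col15a1, changed by 1.01 ± 0.53 (0.14 without peritumoral replicate 2) and did not pass. Neither did Col7a1, Col12a1 or Col20a1, at 0.05 to 0.75. Col26a1, Col8a2, Col9a1 and Col28a1 were not tested and had no count in untreated hepatocytes, which puts them at least 86.1-fold, 31.5-fold, 12.5-fold and 4.18-fold higher. Col9a2 had 84 counts in peritumoral and 2 in untreated hepatocytes, a ratio of 40.5 (95% counting interval 10.9 to 339.7), and Col4a3, the sixth type IV gene, 46 and 1, a ratio of 44.3 (7.57 to 1788). Most counts of Col26a1, Col9a1, Col9a2, Col8a2 and Col28a1 came from peritumoral replicate 2, as did 47 of the 53 peritumoral counts of Col22a1, which had 12 in untreated hepatocytes.

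Laminin chains of each kind were among those that rose, though the one with the highest level in untreated hepatocytes did not pass. Lamc1, the γ1 chain of most laminins, stood at 50.8, 87.9 and 39.1 CPM in peritumoral and 31.6, 33.6 and 15.7 CPM in untreated hepatocytes. The groups did not overlap, but its change of 1.13 ± 0.39 missed the threshold (adjusted p = 0.0723). Lamb1, the β1 chain, stood at 27.7, 28.7 and 22.2 CPM against 1.91, 2.33 and 1.89 CPM and rose by 3.68 ± 0.22, with the smallest SE of any member. Lamb2, the β2 chain, stood at 25.02, 71.1 and 24.7 CPM in peritumoral and 1.96, 3.20 and 2.36 CPM in untreated hepatocytes and rose by 4.00 ± 0.52 (3.34 without peritumoral replicate 2).

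Of the α chains, Lama1 rose by 4.49 ± 0.81 (3.24 without peritumoral replicate 2), Lama2, known from muscle, by 4.02 ± 0.55, Lama4, known from vessels, by 3.38 ± 0.37 and Lama5 by 3.14 ± 0.68 (2.08 without it). Lamc3 rose by 4.70 ± 1.03 with 5.15, 43.5 and 5.14 CPM in peritumoral libraries (2.94 without replicate 2). Lama3 and Lamb3, chains of epithelial laminins, did not pass, with changes of -0.34 ± 0.99 and -0.002 ± 0.31 (adjusted p = 0.829 and 0.998), and without peritumoral replicate 2 the change of Lama3 was 0.29, the other direction. Lama1 lost its call without untreated replicate 1 or 2 (0.0503 to 0.0531) and Lama5 and Lamc3 without any 1 untreated library (0.0556 to 0.0784).

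**Figure D2:**
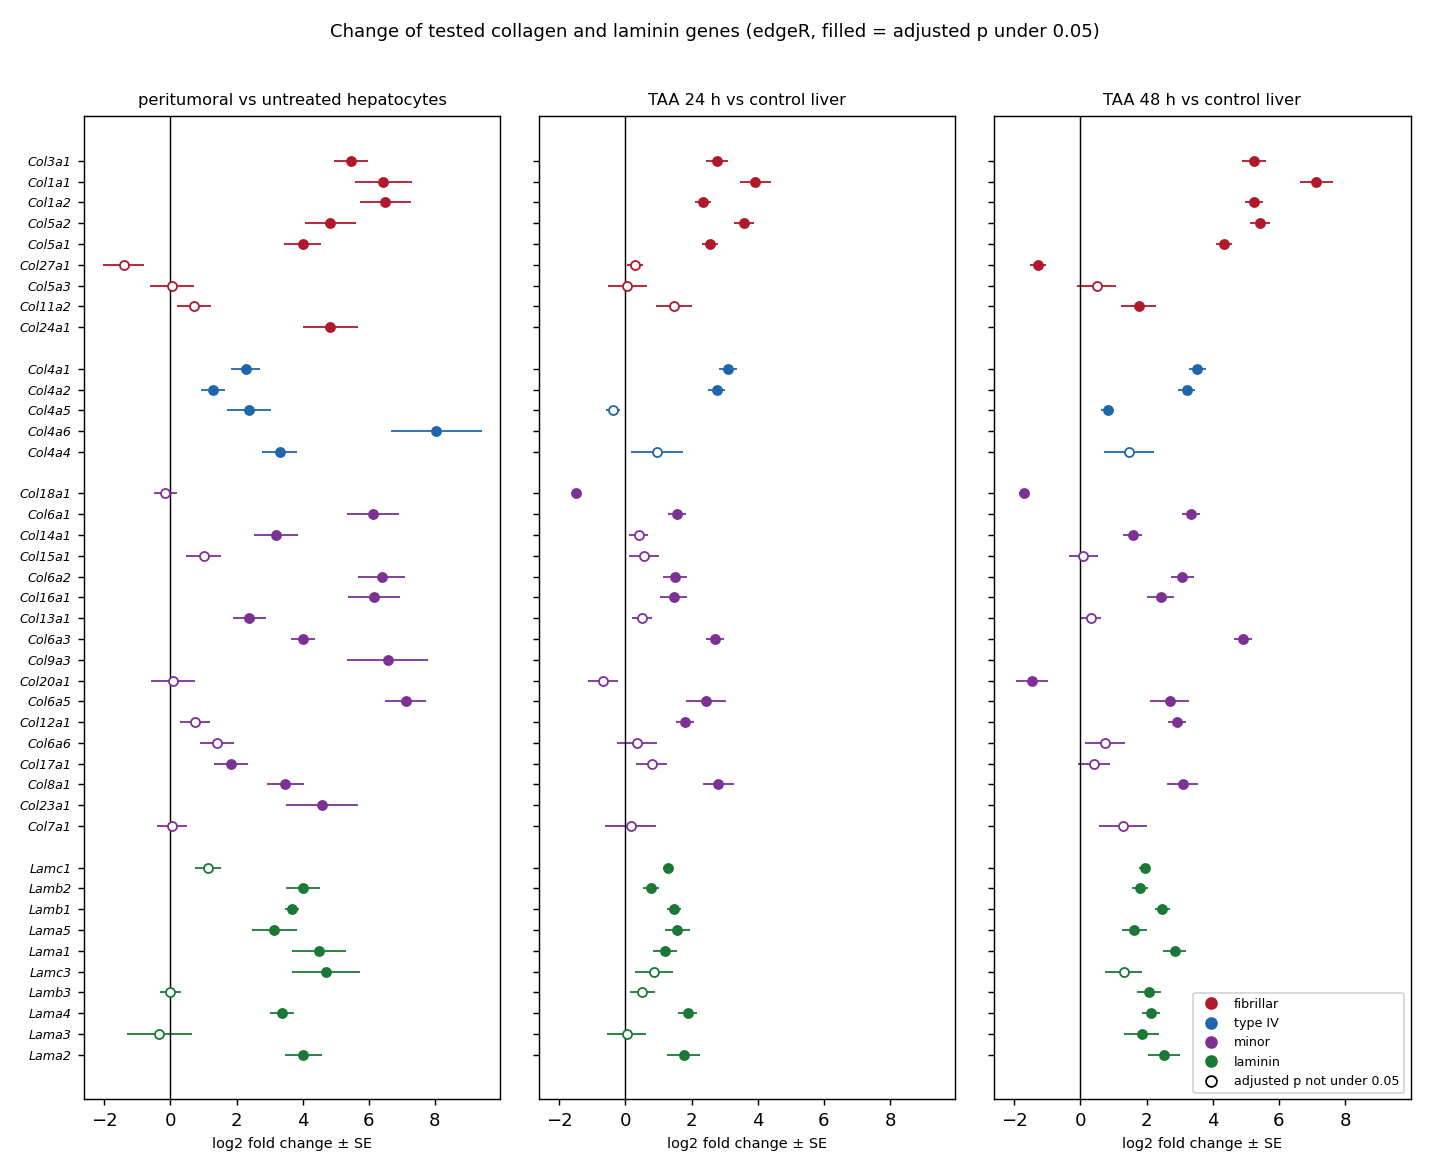
Change of the tested members on the log2 scale (x axis, point = estimate, line = 1 SE) in peritumoral against untreated hepatocytes and in TAA livers against control livers, grouped by class, with filled points for an adjusted p under 0.05. Col1a1, Col1a2, Col3a1, Col5a1 and Col5a2 lie to the right of Col4a1 and Col4a2 in peritumoral hepatocytes and at 48 h, while at 24 h Col4a1 and Col4a2 lie among them, and Col18a1 lies left of 0 in both TAA comparisons.

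Markers of other cells moved with these results, in a comparison where 18.7% of all genes rose and 9.85% fell. As for the members, a marker near absent in untreated hepatocytes, such as Cftr or Wt1, passes the filter only through its peritumoral level. The counts of markers that rose carry that limit. In peritumoral hepatocytes 7 of 9 stellate cell genes rose and their summed level was 521 to 641 RPM, against 48.2 to 119 RPM in untreated hepatocytes. Of 5 genes of activated myofibroblasts 4 rose (42.1 to 237 against 4.38 to 16.6 RPM), and of 6 tested portal fibroblast genes 5 rose (43.6 to 228 against 4.95 to 5.40 RPM for all 7 listed). Endothelial genes rose for 9 of 10 (942 to 1514 against 167 to 283 RPM), bile duct genes for 5 of 7 (775 to 10276 against 50.6 to 73.6 RPM), macrophage genes for 7 of 7 (1334 to 3836 against 145 to 291 RPM) and mesothelial genes for 5 of 5 (32.9 to 249 against 1.42 to 2.08 RPM). Most of the peritumoral bile duct sum was Spp1, at 695 to 9573 RPM, while Krt19 stood at 12.1 to 82.2 RPM and Krt7 at 5.49 to 50.4 RPM. Of 7 hepatocyte genes 0 were called by edgeR in either direction, and Cps1, Hnf4a, Apob and Cyp2e1 had an unadjusted p under 0.05 (log2 changes of -1.13, -0.78, -1.20 and 1.10). The highest sums of bile duct, myofibroblast, portal fibroblast and mesothelial genes were all in peritumoral replicate 2. Its stellate (521 RPM) and hepatocyte (74812 RPM) sums were the lowest of the peritumoral group. Its endothelial and macrophage sums lay between those of the other peritumoral libraries. No listed marker was at 0 in all libraries of a group, and the part of these cells in the collagen and laminin changes was not tested. In such bulk libraries, fewer cells of a type and less RNA per cell cannot be told apart.

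In livers 24 h after TAA, 21 of 38 tested members rose and 1 fell, while 16 did not pass. Over all 13497 genes tested, 21.1% rose and 20.7% fell. The median log2 change was 1.46 over the tested members and 0.02 over all genes. A gene near absent in control livers passes the filter only through its TAA level, so neither count nor median stands for untested members. By class, 5 of 8 fibrillar, 2 of 4 type IV and 7 of 15 minor collagens and 7 of 11 laminins rose, and Col18a1 fell. The 13 untested members had at most 18 counts in any liver library.

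The 2 abundant type IV chains rose at this time. Col4a1 stood at 221 and 184 CPM at 24 h against 28.8 and 18.2 CPM in control livers, a rise of 3.10 ± 0.26 (adjusted p = 0.000563). Col4a2 stood at 140 and 108 CPM against 22.4 and 14.1 CPM, a rise of 2.77 ± 0.26. Col4a5 stood at 5.14 and 5.09 CPM at 24 h and 7.12 and 6.21 CPM in control livers and did not pass (-0.38 ± 0.21). Both called chains held with any 1 library left out.

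Of the fibrillar chains, 5 rose. Col1a1 stood at 30.3 and 33.6 CPM at 24 h against 3.20 and 1.00 CPM in control livers, a rise of 3.93 ± 0.47 (4.97 without control replicate 1 and 3.31 without control replicate 2). Col3a1 stood at 106 and 101 CPM against 19.1 and 11.3 CPM, a rise of 2.77 ± 0.33, and Col1a2 at 33.5 and 40.7 CPM against 8.35 and 6.32 CPM, a rise of 2.34 ± 0.25. Col5a2 rose by 3.59 ± 0.30 and Col5a1 by 2.57 ± 0.25. The groups did not overlap for any of these 5 genes, while Col27a1, at 0.29 ± 0.23, and Col5a3, at 0.06 ± 0.60, did not pass.

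Minor collagens moved in both directions at 24 h. Col18a1 stood at 755 and 782 CPM against 2093 and 2218 CPM in control livers and fell by 1.49 on the log2 scale (SE 0.14, adjusted p = 0.000657). Col6a1 stood at 7.64 and 8.80 CPM against 3.09 and 2.51 CPM and rose by 1.55 ± 0.28. Col6a3 rose by 2.72 ± 0.28, Col8a1 by 2.81 ± 0.47 and Col12a1, a collagen of fibril surfaces, by 1.81 ± 0.28. Col6a2, Col6a5 and Col16a1 rose by 1.496 ± 0.36, 2.44 ± 0.60 and 1.46 ± 0.42, and each lost its call with 3 of the 4 libraries left out in turn (adjusted p = 0.0518 to 0.137). Without control replicate 1 the rise of Col16a1 was 2.14, and without TAA 24 h replicate 2 that of Col6a5 was 1.83. Col14a1 stood at 27.6 and 44.8 CPM against 33.9 and 21.2 CPM, and the groups overlapped.

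Of the laminins, Lamc1 stood at 53.04 and 60.5 CPM at 24 h against 25.1 and 21.1 CPM in control livers, a rise of 1.301 ± 0.15. Lamb1 stood at 11.5 and 13.96 CPM against 5.36 and 3.81 CPM, a rise of 1.47 ± 0.22, and Lama4 rose by 1.88 ± 0.28. These 3 held with any 1 library left out. Lamb2 stood at 6.47 and 7.84 CPM against 3.92 and 4.41 CPM and rose by 0.78 ± 0.25. Lama1, Lama2 and Lama5 rose by 1.20 ± 0.37, 1.76 ± 0.50 and 1.57 ± 0.38. These 4 calls were lost without 1 or more of the 4 libraries: Lamb2 and Lama2 without any of them (adjusted p = 0.0707 to 0.179), Lama1 without TAA 24 h replicate 2 or control replicate 2 (0.168 to 0.188) and Lama5 without either TAA library or control replicate 1 (0.0554 to 0.0754).

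At 48 h after TAA, 27 of the 38 tested members rose and 3 fell, against 25.1% and 24.0% of all genes tested. The median log2 change was 2.10 over the tested members and -0.03 over all genes. The limit of the filter given for 24 h holds for this count and median too. By class, 6 of 8 fibrillar, 3 of 4 type IV and 8 of 15 minor collagens and 10 of 11 laminins rose. The genes that fell were Col18a1, Col20a1 and Col27a1. The 24 h and 48 h comparisons share their 2 control livers, so their members are set side by side and not counted as agreement.

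Col1a1 stood at 221 and 368 CPM at 48 h against 3.20 and 1.00 CPM in control livers, a rise of 7.13 ± 0.50 (8.14 without control replicate 1 and 6.48 without control replicate 2). Col3a1 stood at 439 and 718 CPM against 19.1 and 11.3 CPM, and rose by 5.25 ± 0.36. Col1a2 stood at 229 and 329 CPM against 8.35 and 6.32 CPM, and rose by 5.25 ± 0.27. Col5a2 rose by 5.43 ± 0.29 and Col5a1 by 4.34 ± 0.25. Every 48 h library lay above every control library for these 5, and the calls held with any 1 library left out.

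Col27a1 stood at 10.47 and 14.1 CPM at 48 h against 25.99 and 34.1 CPM in control livers and fell by 1.29 (SE 0.24, adjusted p = 0.00519). This call was lost without scaling factors (-0.58, adjusted p = 0.0595), by limma and in a fit of all 12 libraries (up to 0.193). Col11a2 rose by 1.76 ± 0.54 (1.07 without control replicate 1 and 2.95 without control replicate 2) and lost its call without either TAA 48 h library or control replicate 1 (0.0862 to 0.0994).

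Col4a1 stood at 241 and 306 CPM at 48 h against 28.8 and 18.2 CPM in control livers, a rise of 3.54 ± 0.27, and Col4a2 at 154 and 184 CPM against 22.4 and 14.1 CPM, a rise of 3.21 ± 0.26. Col4a5 stood at 11.05 and 12.5 CPM against 7.12 and 6.21 CPM and rose by 0.82 ± 0.20, a call lost without TAA 48 h replicate 2 or control replicate 2 (adjusted p = 0.0598 to 0.0857). Col4a4 at 1.48 ± 0.76 did not pass.

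Of the minor collagens, Col18a1 stood at 670 and 656 CPM at 48 h against 2093 and 2218 CPM in control livers and fell by 1.70 (SE 0.14, adjusted p = 0.00031). Without scaling factors its change was -0.98 at 24 h and -0.99 at 48 h, and both calls held in every alternative run. Col6a1 stood at 22.8 and 33.8 CPM against 3.09 and 2.51 CPM and rose by 3.34 ± 0.27. Col14a1 stood at 82.2 and 82.5 CPM against 33.9 and 21.2 CPM and rose by 1.58 ± 0.29. Col6a3 rose by 4.91 ± 0.28, Col8a1 by 3.09 ± 0.46, Col6a2 by 3.08 ± 0.35 and Col12a1 by 2.93 ± 0.27. Col6a5 and Col16a1 rose by 2.70 ± 0.59 (2.10 without TAA 48 h replicate 2) and 2.43 ± 0.41 (3.08 without control replicate 1). Col20a1 fell by 1.47 (SE 0.48), to 1.32 and 4.00 CPM, against 6.19 and 8.82 CPM in control livers. It fell by 2.497 without TAA 48 h replicate 2, and the call was lost without TAA 48 h replicate 1 or control replicate 2 (adjusted p = 0.101 to 0.140) and without scaling factors (0.181). Col26a1, at 0 counts in all 4 TAA livers, had 19 counts in control livers, nearly all in replicate 1 (1.86 CPM against 0.1002 CPM).

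Of the laminins, Lamc1 stood at 95.1 and 81.8 CPM at 48 h against 25.1 and 21.1 CPM in control livers, a rise of 1.94 ± 0.15. Lamb1 stood at 23.7 and 27.6 CPM against 5.36 and 3.81 CPM, a rise of 2.48 ± 0.22, and Lamb2 at 12.3 and 16.8 CPM against 3.92 and 4.41 CPM, a rise of 1.80 ± 0.25. Of the epithelial chains, Lamb3 rose by 2.06 ± 0.36 and Lama3 by 1.85 ± 0.53 (1.24 without TAA 48 h replicate 2). Lama1, Lama2, Lama4 and Lama5 rose by 2.85 ± 0.36, 2.51 ± 0.48, 2.13 ± 0.27 and 1.62 ± 0.38, while Lamc3 at 1.31 ± 0.56 did not pass. Lama3 and Lama5 lost their calls without TAA 48 h replicate 2 or control replicate 1 (adjusted p = 0.0599 to 0.176).

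Set directly against 24 h, 15 of 38 members were higher at 48 h and 1 was lower, against 5.02% and 2.53% of all genes tested. Chains of types I and III had the largest rises among the 15: Col1a1 rose by 3.20 ± 0.39, Col1a2 by 2.91 ± 0.23, Col3a1 by 2.48 ± 0.31, Col5a2 by 1.84 ± 0.22 and Col5a1 by 1.78 ± 0.21. Col6a3, Col6a1 and Col6a2 rose by 2.19 ± 0.22, 1.78 ± 0.23 and 1.58 ± 0.30 and Col12a1 by 1.12 ± 0.23. Of type IV, Col4a5 rose by 1.21 ± 0.20, while Col4a1 at 0.43 ± 0.24 and Col4a2 at 0.44 ± 0.24 did not pass (adjusted p = 0.296 and 0.281). Of laminins, Lama1, Lamb3, Lamb2, Lamb1 and Lamc1 rose by 0.64 to 1.65. Col27a1 fell by 1.58 (SE 0.24). Without 24 h replicate 1 or 24 h replicate 2, 0 members passed by edgeR (17 at an unadjusted p under 0.05 each time), and 7 and 6 rose without 48 h replicate 1 and 2, while DESeq2 called 16 and limma 8 with all libraries. Dropping any single one of the 4 libraries ended the call on Col27a1 (adjusted p = 0.0531 to 0.125).

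Cell markers moved with TAA too, and the limit of the filter holds for their counts here as well. Over all genes tested, 21.1% rose and 20.7% fell at 24 h, and 25.1% and 24.0% at 48 h. At 24 h, 6 of 9 stellate cell genes rose and their summed level was 353 to 370 RPM, against 90.7 to 149 RPM in control livers, and all 5 genes of activated myofibroblasts rose (99.0 to 145 against 7.66 to 12.6 RPM). At 48 h these were 7 of 9 (517 to 544 RPM) and 5 of 5 (200 to 256 RPM). Portal fibroblast genes rose for 2 and 4 of 5 tested at 24 h and 48 h (14.3 to 19.7 and 37.1 to 51.0 against 5.26 to 6.25 RPM), endothelial genes for 7 and 8 of 10 (342 to 463 and 412 to 545 against 137 to 165 RPM), and macrophage genes for 4 and 7 of 7 (339 to 456 and 680 to 1230 against 61.8 to 142 RPM). Of bile duct genes 4 and 2 of 6 rose, and 1 fell at 48 h. Of mesothelial genes 0 and 1 of 4 rose, and of 7 hepatocyte genes 5 and 4 fell. Between 48 h and 24 h, when 5.02% of all genes rose, 1 of 9 stellate and 2 of 5 myofibroblast genes rose. Their part in the member changes was not tested.

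Scaling bears on every direction given here. Without TMM factors, on the scale of the deposited RPM values, the median of all genes shifted by 0.25 in the peritumoral, 0.51 in the 24 h, 0.71 in the 48 h and 0.20 in the 48 h against 24 h comparison, and rises made up 93.29%, 83.38%, 88.69% and 87.55% of all calls, against 65.47%, 50.48%, 51.09% and 66.54% with the factors. On that scale 29, 27, 31 and 17 members rose, which include all 29, 21, 27 and 15 called with the factors.

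The peritumoral and 48 h comparisons share no library. Of the genes called higher, 21 were common to both, which is 72.4% of the 29 in peritumoral hepatocytes and 77.8% of the 27 at 48 h. With the 21 called at 24 h, 19 were common, or 65.5% of the 29 and 90.5% of the 21. Over all genes called higher, the shared ones made up 63.0% of the peritumoral and 46.8% of the 48 h calls, and 43.9% of the peritumoral and 38.7% of the 24 h calls. Nothing particular to the members is read from these shares. The changes themselves were then tested against each other in a fit of all 12 libraries, in which 45 members could be tested. Against 24 h, the peritumoral change was larger for 11 members and smaller for 1 (8.85% and 11.9% of all genes), and against 48 h larger for 6 and smaller for 3 (6.4% and 8.16%). Both tests share the hepatocyte and control libraries, so a member called at both times is not counted as agreement.

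Col6a2 and Col6a5 differed in direction from Col4a2 in this test. Of the 5 type VI genes, 3 had a larger peritumoral change against 24 h and 2 against 48 h (8.85% and 6.4% of all genes). The change of Col6a2 was larger in peritumoral hepatocytes by 4.77 ± 0.89 than at 24 h and by 3.22 ± 0.87 than at 48 h, and that of Col6a5, which had few untreated counts, by 4.56 ± 0.98 and 4.34 ± 0.98. Without peritumoral replicate 2 the values for Col6a2 were 3.96 and 2.42, and those for Col6a5 were 5.155 without TAA 24 h replicate 2 and 4.95 without TAA 48 h replicate 2. For Col4a2 it was smaller, by -1.60 ± 0.49 and -2.00 ± 0.50. For Col1a1, Col3a1 and Col5a1 the difference from 48 h was -0.79 ± 1.06, 0.14 ± 0.61 and -0.44 ± 0.71 and did not pass (adjusted p = 0.637, 0.904 and 0.700). Lamb1 differed at both times (2.09 ± 0.30 and 1.12 ± 0.30), Lamb3 (-2.13 ± 0.46) and Col12a1 (-2.27 ± 0.61) were smaller than at 48 h, and of all 21 differences called, that of Lamb1 from 24 h alone kept its call with each of the 10 libraries left out in turn.

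**Figure D3:**
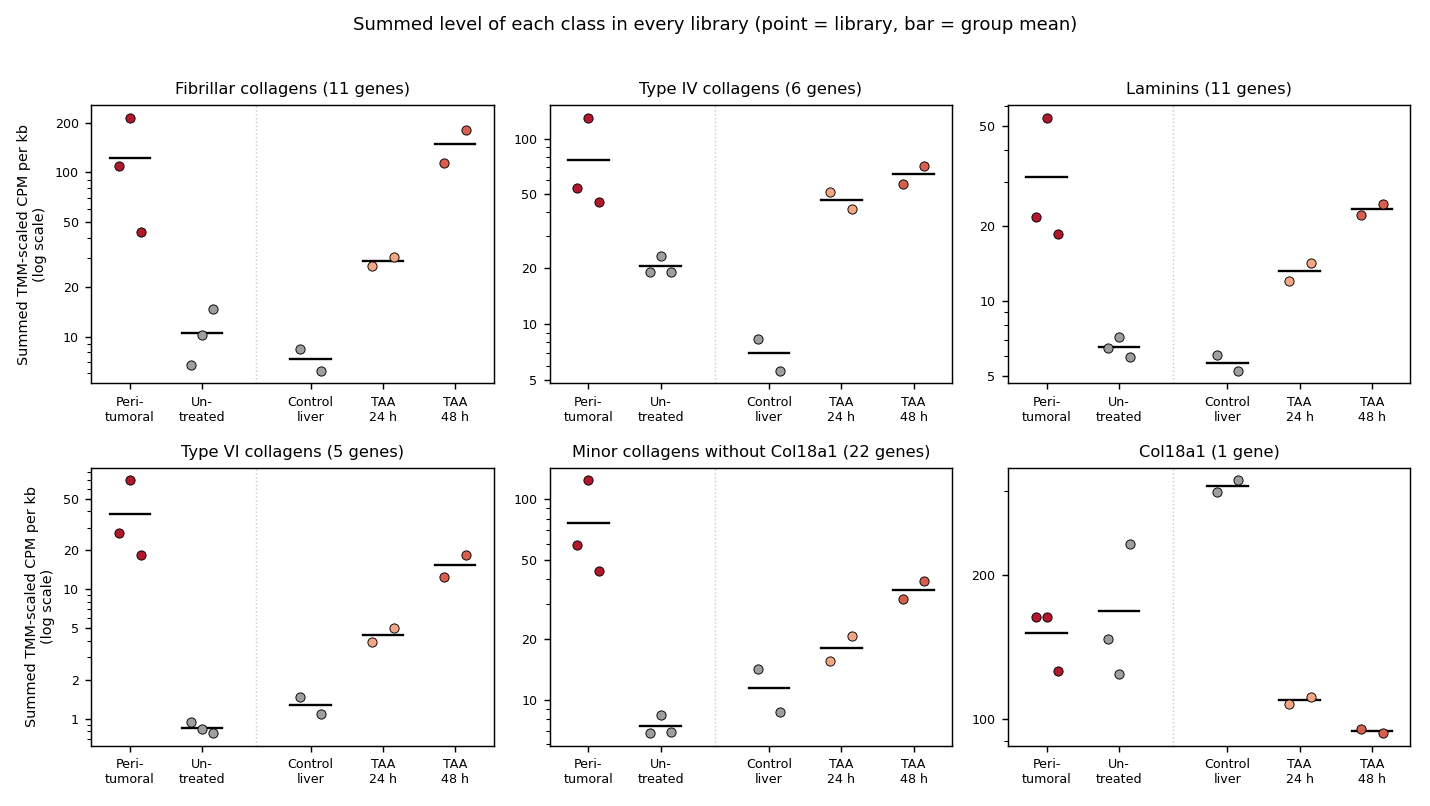
Summed level of each class in every library as TMM-scaled CPM per kb of exon on a log axis, with points for libraries and bars for group means. Fibrillar sums lie at 43.4 to 215 in peritumoral and 6.69 to 14.7 in untreated hepatocytes, and at 6.18 to 8.44, 27.0 to 30.3 and 115 to 182 in control livers, at 24 h and at 48 h, while the Col18a1 panel shows the fall after TAA.

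Levels were also summed per kilobase by class, with no test between classes. Fibrillar collagens averaged 122 ± 86.3 CPM per kb in peritumoral and 10.55 ± 4.00 in untreated hepatocytes (SD, n = 3 each), and 7.31 ± 1.60 in control livers, 28.65 ± 2.35 at 24 h and 148 ± 47.5 at 48 h (SD, n = 2 each). Type IV averaged 76.4 ± 45.9 CPM per kb in peritumoral and 20.6 ± 2.35 in untreated hepatocytes, and 7.001 ± 1.95, 46.8 ± 6.88 and 64.0 ± 9.61 in control livers, at 24 h and at 48 h. Minor collagens without Col18a1 averaged 75.9 ± 42.9 CPM per kb in peritumoral and 7.38 ± 0.89 in untreated hepatocytes, and 11.5 ± 3.87, 18.2 ± 3.64 and 35.4 ± 4.98 in control livers, at 24 h and at 48 h. Laminins averaged 31.4 ± 19.7 in peritumoral and 6.52 ± 0.59 in untreated hepatocytes, and 5.66 ± 0.58, 13.1 ± 1.53 and 23.3 ± 1.69 in control livers, at 24 h and at 48 h. Without peritumoral replicate 2 the peritumoral means were 76.4 ± 46.6 for fibrillar, 50.1 ± 6.10 for type IV and 20.1 ± 2.22 for laminin genes (SD, n = 2). All collagens together averaged 426 ± 190 CPM per kb in peritumoral and 206 ± 58.3 in untreated hepatocytes, and 333 ± 5.16, 203 ± 1.77 and 342 ± 60.6 in control livers, at 24 h and at 48 h. Without Col18a1 the liver sums were 25.8 ± 7.42, 93.6 ± 0.88 and 248 ± 62.0 CPM per kb.

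The make-up of the collagen transcript pool was compared as shares of summed RPKM (the deposited RPM per kilobase of exon), which do not depend on scaling. Fibrillar types made up 28.3%, 33.95% and 16.8% in peritumoral and 3.73%, 6.18% and 5.37% in untreated hepatocytes, a difference of 21.2 percentage points with no overlap (exact permutation test, two-sided, p = 0.1, the smallest that 3 against 3 libraries allow). They made up 2.56% and 1.84% in control livers, 13.4% and 14.8% at 24 h and 38.3% and 47.2% at 48 h. The differences from control livers were 11.9 and 40.6 points and that between the times 28.7 points (exact permutation p = 0.333 each, the smallest that 2 against 2 allow). Col18a1 made up 25.9% to 48.7% in peritumoral and 74.8% to 85.1% in untreated hepatocytes, and 90.6% and 93.9% in control livers, 53.3% and 54.5% at 24 h and 31.9% and 24.3% at 48 h.

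Of collagens without Col18a1, fibrillar types made up 28.6% and 32.6% at 24 h and 27.2% and 30.1% in control livers, which overlap. The hepatocyte groups overlapped too, at 49.0%, 45.8% and 32.7% in peritumoral and 20.5%, 24.5% and 36.0% in untreated libraries. With types XV and XVIII left out, the 24 h difference was -0.23 points and the peritumoral one 14.1 points (exact permutation p = 0.2), while that at 48 h was 27.65 points. Among collagens without Col18a1, type IV made up 24.4% to 34.4% in peritumoral and 47.1% to 58.7% in untreated hepatocytes. In livers its share was 27.0% and 27.4% in controls, 54.8% and 45.1% at 24 h and 28.1% and 24.3% at 48 h, so the 24 h libraries held the highest type IV and the 48 h libraries the highest fibrillar share (56.3% and 62.4%) of the liver groups.

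**Figure D4:**
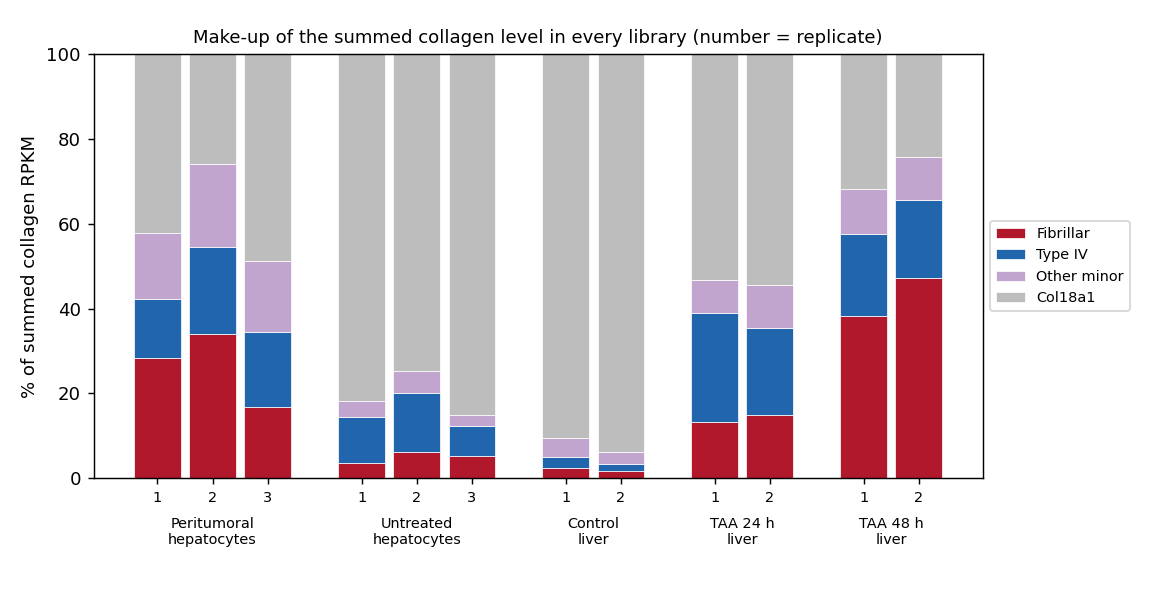
Make-up of the summed collagen RPKM in every library as stacked percentages of fibrillar, type IV, other minor collagens and Col18a1, with replicate numbers under the bars. Col18a1 fills 74.8% or more of the bar in untreated hepatocytes and control livers, and fibrillar collagens are the largest part in both 48 h libraries.

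Ratios between chains were compared as a description, and they separated the groups for some pairs and overlapped for others. Col4a1 over Col4a2 was 1.62, 2.04 and 1.83 in peritumoral and 0.993, 1.00 and 0.855 in untreated hepatocytes, and 1.14 in both control livers, 1.39 and 1.51 at 24 h and 1.39 and 1.47 at 48 h. Neither comparison's groups overlapped. Col1a1 over Col1a2 was 1.33, 1.67 and 1.32 in peritumoral and 1.58, 1.89 and 1.29 in untreated hepatocytes, which overlap, and 1.57 to 2.12 in TAA livers, against 0.725 and 0.301 in control livers, where Col1a1 had few counts. Col6a1 over Col6a2 was 2.06 to 2.72 in peritumoral and 1.90 to 7.18 in untreated hepatocytes, and 2.19 to 2.65 in TAA livers and 1.84 and 2.64 in control livers, which overlap in both cases. Col5a1 over Col5a2 was 0.515 to 1.155 in peritumoral and 0.620 to 1.76 in untreated hepatocytes, which overlap, and 1.43 to 1.71 in TAA livers, against 2.65 and 4.31 in control livers. Col6a3 over Col6a1 was 0.171, 0.0447 and 0.212 in peritumoral hepatocytes and 0.634 to 0.935 in TAA livers, and the untreated range of 0.162 to 0.651 spans the peritumoral values apart from replicate 2, which lies below it. Lamb2 over Lamc1 was 0.670, 1.10 and 0.858 in peritumoral and 0.0844, 0.129 and 0.204 in untreated hepatocytes, while TAA livers at 0.166 to 0.279 and control livers at 0.213 and 0.285 overlapped.

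**Figure D5:**
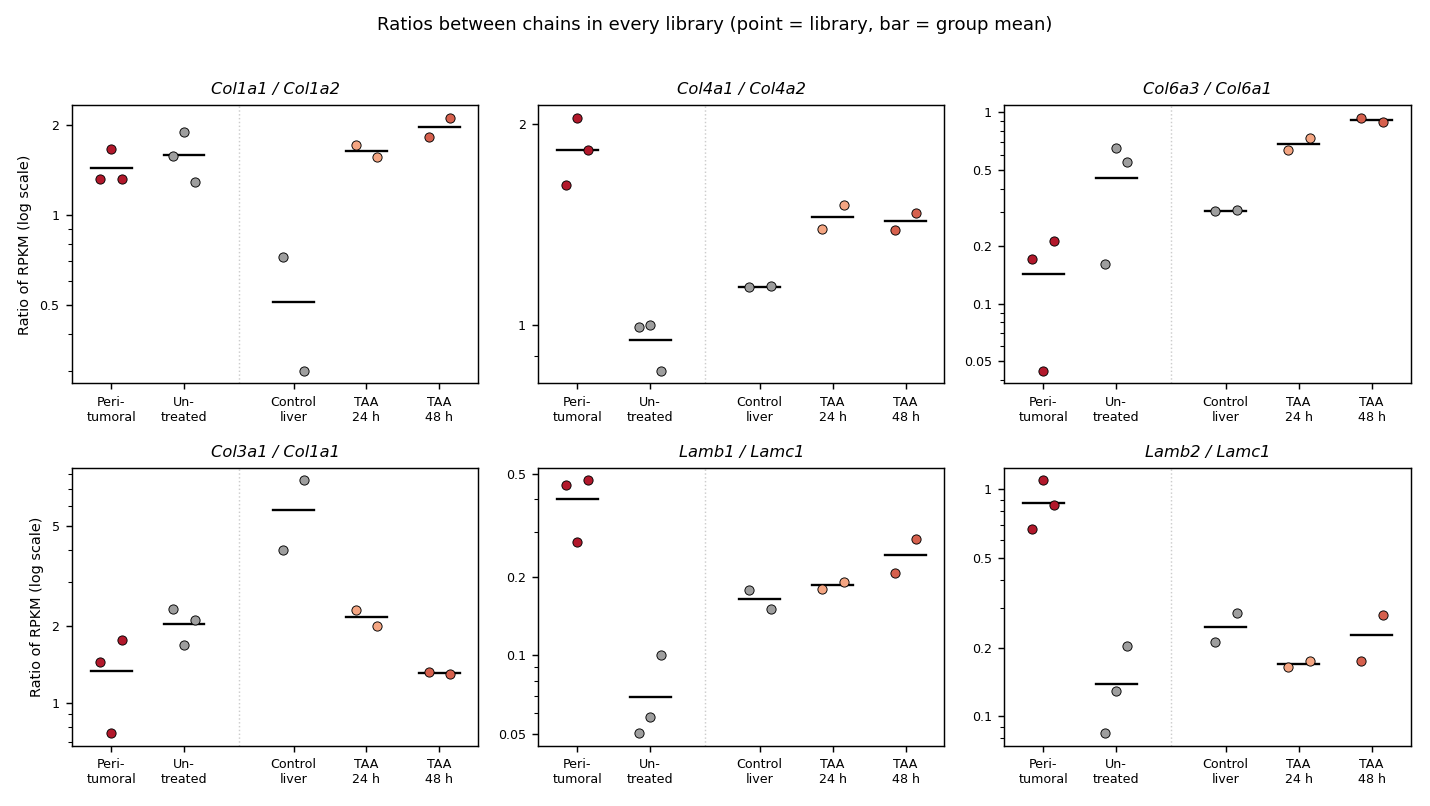
Ratios of RPKM between pairs of chains in every library on a log axis, with points for libraries and bars for group means. Col4a1 over Col4a2 separates peritumoral (1.62 to 2.04) from untreated hepatocytes (0.855 to 1.00), and Lamb2 over Lamc1 is 0.670 to 1.10 in peritumoral hepatocytes and at most 0.285 in every other library.

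The genes that modify and fold procollagen moved in part, and the limit of the filter given for the members holds for their counts too. Of 23 tested collagen biosynthesis genes in peritumoral hepatocytes, 13 rose and 3 fell, against 18.7% and 9.85% of all genes tested. Pcolce, an enhancer of procollagen C-proteinase, rose by 3.40 ± 0.28, P3h3, of the prolyl 3-hydroxylase family, by 2.996 ± 0.35, and Serpinh1, the collagen chaperone HSP47, by 2.97 ± 0.37. Mia3 (an export factor of the endoplasmic reticulum), P3h1 and Ppib, both of the prolyl 3-hydroxylation complex, fell by 0.91, 1.17 and 0.93 (named after their values were seen), and the summed list stood at 2443 to 3012 RPM in peritumoral and 2940 to 4984 RPM in untreated hepatocytes. Most of that sum was P4hb, at 1381 to 1725 RPM in peritumoral and 1912 to 3494 RPM in untreated hepatocytes, so it does not stand for the list. In TAA livers 13 of 22 rose and 1, Mia3, fell at each time. Over all genes tested, 21.1% rose and 20.7% fell at 24 h, and 25.1% and 24.0% at 48 h. At 24 h Serpinh1 rose by 3.58 ± 0.22, P3h1 by 1.25 ± 0.15 and Crtap, a partner of P3h1, by 1.08 ± 0.15. At 48 h Serpinh1 rose by 4.44 ± 0.22, Fkbp10, a prolyl isomerase of the endoplasmic reticulum, by 4.24 ± 0.41 and Crtap by 1.46 ± 0.14. Between the times Serpinh1 and Fkbp10 rose, against 5.02% of all genes tested.

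Of 12 partners of the basement membrane, 7 rose and 0 fell in peritumoral hepatocytes (all 12 estimates were positive), against 18.7% and 9.85% of all genes tested. The limit of the filter holds for this list too. Hspg2, which encodes the proteoglycan perlecan, rose by 1.87 ± 0.13, Sparc, a collagen-binding protein, by 3.69 ± 0.35 and Pxdn, the enzyme that cross-links type IV, by 3.28 ± 0.40. At 24 h after TAA 6 rose and 1 fell (21.1% and 20.7% of all genes), and at 48 h 7 rose and 2 fell (25.1% and 24.0%). Nid1, the nidogen that links laminin with type IV, rose by 4.73 ± 0.22 at 24 h and 4.08 ± 0.21 at 48 h, Sparc by 2.11 ± 0.29 and 2.76 ± 0.30 and Fbln2, also a portal fibroblast marker here, by 1.29 ± 0.28 and 2.86 ± 0.28. Dag1, a laminin receptor, fell by 0.90 (SE 0.13) and 0.50 (SE 0.13), and Smoc1 fell by 0.63 (SE 0.22) at 48 h.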

How the data were processed

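Raw read counts per gene for 41128 genes and a filtered RPM table for 17311 genes were deposited by the authors. The count values are unnormalized, and each RPM value is the deposited count scaled to its library total, tested on the files: 100% of values gave whole reads within 0.001 read. Libraries were made with a stranded poly(A) kit, per the labels' protocols. STAR, DESeq2 and the builds mm10 and GRCm38 are named in the submitters' processing notes, while annotation, counter and strand setting are not stated.

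Collagens and laminins were picked by symbol, and the members, gene lists and marker lists were chosen with earlier results of these data known. The values of 1 member are not reported here, though counts and sums include it. Counts were tested with edgeR 4.0.16 (R 4.3.3) by the quasi-likelihood F test, two-sided, with TMM factors, filterByExpr and Benjamini-Hochberg adjustment over all genes, threshold 0.05. The 6 hepatocyte and 6 liver libraries were fitted apart, since mouse stock differs between them (levels scaled apart are not compared), and differences of changes in a fit of all 12 libraries. Levels between genes are per kb of merged exon (GENCODE M21, which held 97.9% of the gene IDs). Promoter sequences came from RefSeq (GRCm38.p6), which matched 34 of 51 members. A share was compared by an exact permutation test. A floor of 3 counts corresponds to 0.162 to 0.311 RPM per library, and intervals and floors cover counting error only. Alternatives were RLE factors, no count filter or 50 counts, DESeq2 1.42.0, limma 3.58.1 on log2(RPM + 0.5), a replicate block, 1 joint fit, left-out libraries, other gene lengths and collagen sets, and, chosen after the data were seen, no scaling factors. The script was tested on simulated data. Values of every library are given for the 3 genes of each class with the highest mean level per kb, called members by fold change, and of each other list the 3 called genes with the smallest p.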

Additional observations from a re-analysis of the deposited data

Results flagged for a closer look

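For 21 changes the fit of all 12 libraries found a difference between the peritumoral change and a TAA change (edgeR interaction test, adjusted p under 0.05), given here as the peritumoral log2 change minus the TAA log2 change. Differences from 24 h and from 48 h share the hepatocyte and control libraries, so a gene listed for both is not repeated evidence. Hepatocyte and liver groups differ in mouse stock, possibly in preparation and, except for peritumoral replicate 2, in Xist and Ddx3y reads. None of these can be told apart from the models.

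Among collagens of fibrils and their surfaces, the peritumoral change exceeded the 24 h change by 2.58 for Col3a1 (adjusted p = 0.0212), 4.04 for Col1a2 (0.0129) and 4.56 for Col16a1 (0.0163). For Col16a1 it exceeded the 48 h change by 3.62 (0.0396), while Col12a1 lay below it by -2.27 (0.0381). For type VI, the difference from 24 h was 4.44 for Col6a1 (0.0141), 4.77 for Col6a2 (0.00969) and 4.56 for Col6a5 (0.0147), and from 48 h 3.22 for Col6a2 (0.0376) and 4.34 for Col6a5 (0.0232).

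For type IV, Col4a2 differed by -1.60 from 24 h (0.0457) and -2.00 from 48 h (0.0295), and Col4a6, near absent in untreated hepatocytes, by 7.50 (0.0266) and 7.64 (0.0337). Col18a1, which fell after TAA, differed by 1.24 (0.0446) and 1.49 (0.0327), and the membrane-spanning Col23a1 by 5.30 from 24 h (0.0463). For laminins, Lamb1 differed by 2.09 from 24 h (0.00586) and 1.12 from 48 h (0.0374), Lamb2 by 3.09 from 24 h (0.0133) and Lamb3 by -2.13 from 48 h (0.0208).

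Without peritumoral replicate 2, 10 of these values moved by over 1.5 times. Against 24 h they were 3.39 for Col6a1, 3.96 for Col6a2, 3.20 for Col1a2, 6.14 for Col4a6, 3.63 for Col16a1, 2.38 for Lamb2 and 3.95 for Col23a1, and against 48 h 2.42 for Col6a2, 6.29 for Col4a6 and 2.70 for Col16a1.
Other left-out libraries moved Col4a6 (6.36 to 9.37 against 24 h and 6.48 to 9.51 against 48 h, untreated replicate 2 and each control liver), Col16a1 (3.95 to 5.16 and 3.001 to 4.23, untreated replicate 2 and control replicate 1), Col23a1 (5.98 and 6.004, untreated replicate 2 and TAA 24 h replicate 2) and Col6a5 (5.16 and 4.95, TAA replicate 2 of each time).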

How the results depend on the processing

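Counts of members called kept within 1.5 times of the stated value under most alternatives, and no single gene's call reversed. The exceptions follow, and the cause was not tested. Without a count filter 2 members fell at 24 h (Col18a1 and Col26a1). At 48 h 1 fell, Col18a1, without scaling factors (an alternative chosen after the data were seen), by limma and in the fit of all 12 libraries. Between 48 h and 24 h, 8 rose and 0 fell by limma (1 fell at an unadjusted p under 0.05), and 1 rose and 0 fell in the fit of all 12 libraries (12 and 1 at an unadjusted p under 0.05). By DESeq2, 22 peritumoral changes exceeded those at 24 h and 13 those at 48 h, and with RLE factors or the filter of 50 counts 0 lay below those at 24 h (1 at an unadjusted p under 0.05 each).

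The difference in fibrillar share was 14.1 points (types XV and XVIII left out) and 11.18 (type I left out) in peritumoral hepatocytes. At 24 h it was 14.91 (counts not divided by length), 14.75 (longest transcript), -0.23 (types XV and XVIII left out, reversed) and 8.71 (type I left out), and at 48 h 45.52, 46.95, 27.65 and 27.13 in the same order. Between the times it was 18.42 with type I left out.

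With each library left out in turn, 16 to 30 members rose and 0 to 0 fell in peritumoral hepatocytes, 14 to 18 rose and 1 to 2 fell at 24 h, 23 to 27 rose and 2 to 3 fell at 48 h, and 0 to 7 rose and 0 to 0 fell between the times. The peritumoral change was larger than that at 24 h for 1 to 16 and smaller for 0 to 4, and larger than that at 48 h for 0 to 10 and smaller for 0 to 4. Where a group was left with 1 library, that library was taken to vary like the others.

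In hepatocytes the replicate numbers did not consistently pair the samples. Same-numbered libraries correlated at -0.199, 0.109 and 0.0695, and not every library correlated best with its own number. With 2 libraries in a liver group, deviations from the group mean mirror each other, so correlations of at most 0.0207 cannot decide pairing there. With the replicate block 29 members rose and 0 fell in peritumoral hepatocytes, 21 rose and 1 fell at 24 h, 27 rose and 3 fell at 48 h, and 14 rose and 1 fell between the times, with 14 larger and 1 smaller changes than at 24 h and 6 and 3 than at 48 h. Of the 29 peritumoral calls 27 were kept (Col17a1 and Col4a5 were lost) and of the 21 at 24 h 20 (Lama1 was lost). The block also ended the calls on Lamc1 between the times, on the differences of Col18a1 from both times and on that of Lamb1 from 48 h. Groups of 2 or 3 libraries limit these tests, and depth limits members with few counts.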
